A study of Mus musculus with 4 samples.

Results

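The genes examined here encode the proteins that package, mark and splice pre-mRNA: the SR proteins, the heterogeneous nuclear ribonucleoproteins (hnRNPs), and the Sm and LSm proteins of the small nuclear ribonucleoproteins (snRNPs). They were chosen by a rule on names, with earlier results of these data known. The rule took probes whose array gene name begins with Srsf, Sfrs, Hnrnp, Snrp or Lsm (Srsf, Sfrs and Lsm followed by a digit). A probe also had to clear the well-above-background flag on the 2 arrays of either group. Of 55681 probes on the array, 104 of 63 genes carried such a name, and 99 of 61 genes passed the background condition. All 3 probes of Snrpn, the single probe of Srsf12 and 1 of 2 probes of Snrpc did not pass, so Snrpn and Srsf12 were not tested. Of the 99 kept probes, 97 were well above background on all 4 arrays, so few members entered through 1 group alone. Hnrnpdl and Hnrnpll, which the array names Hnrpdl and Hnrpll, and Snrnp70 fall outside this pattern and were not members.

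Messenger RNA was measured in 32D-EpoR cells, a mouse myeloid progenitor line that grows on interleukin-3 and carries an introduced receptor for erythropoietin (Epo), the hormone that drives red cell production. All cells were grown with WEHI medium, a source of interleukin-3, then washed and cultured in RPMI medium with 10% FBS and no WEHI medium. One group then received Epo at 10 U/ml and the other received none; the labels do not state how long Epo was present. Each group had 2 samples, from 2 independent experiments with cells of different passages, and each sample was hybridised to 1 one-colour array. The control is thus starved of its cytokine, and the cells are a single line in which the Epo receptor was introduced. The comparison asks which transcripts differ between starved cells and cells given Epo.

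SR proteins carry RNA-binding domains and a tail rich in arginine and serine, bind exonic enhancers and help the snRNPs find splice sites. hnRNP proteins coat the nascent transcript and often act against SR proteins at the same exons. The Sm proteins form a ring around the U1, U2, U4 and U5 RNAs, a related ring of LSm proteins holds U6 RNA, and another LSm ring, with Lsm1, takes part in mRNA decapping in the cytoplasm. Many SR and hnRNP genes are known to regulate their own transcripts through alternative splicing.

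The 75th percentile of intensity, on which the arrays were scaled, was 224 and 250 without Epo and 347 and 454 with Epo, and 41.3% to 47.9% of probes were well above background. The correlation of 2 arrays over genes was 0.993 for no Epo, 0.995 for Epo and 0.971 to 0.976 across groups. Of 12 myeloid progenitor markers 11 were tested, of which Csf2rb2, a receptor subunit for interleukin-3, was higher with Epo by 0.49 (SE 0.12) and Cebpa, a myeloid transcription factor, fell by 0.74 (SE 0.14) on the log2 scale; Kit, a progenitor receptor, was not well above background. The myeloid markers' summed signal was 207134 to 209757 without Epo and 183884 to 195562 with Epo. Of 8 lymphoid markers 3 were above background, and all 3 (Cd3e, Cd4 and Cd79b) were lower with Epo, with a summed signal of 2366 to 2444 without and 1263 to 1401 with Epo. Among 6 macrophage markers 3 were tested, with Adgre1 higher by 1.03 and Csf1r lower by 0.79, and a summed signal of 3555 to 3639 without and 4442 to 4762 with Epo. Among 6 stromal markers Pdgfrb alone was tested and fell by 2.45, and none of 4 epithelial markers was above background. The part of these markers in the results below was not tested.

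Of the 61 genes, 7 were higher with Epo and 0 were lower at an adjusted p under 0.05 (limma, Benjamini-Hochberg over all 17555 genes tested). The 7 were Srsf6, Srsf7, Srsf10, Scaf4, Akap17b, Hnrnpab and Snrpa1. They made up 11.5% of the members, whereas 27.4% of all genes tested were called, 13.1% higher and 14.3% lower. At an unadjusted p under 0.05, 9 members were above 0 and 6 below, 24.6% of the members against 42.7% of all genes. The members' changes ran from -0.89 to 1.08 on the log2 scale with a median of 0.095, against a median of -0.06 over all genes. Of the 61 members, 49 changed by less than 0.5 in size, 1 (1.64%) differed at least 2-fold between groups against 12.4% of all genes, and 47 had a 95% confidence interval that lay within 1 log2 unit of 0. The members were bright, with a median log2 signal of 12.86 against 9.48 over all genes, so the same count was made among genes with a mean log2 signal of at least 12: 4 of 38 members (10.5%) were called there, against 18.3% of all genes in that range (10.4% higher and 7.89% lower).

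The count rested on settings of the fit. With the replicate number, read as the experiment, as a block, 14 members were higher and 6 lower, together 32.8% of the members against 43.1% of all genes (19.9% higher and 23.2% lower); all 7 genes called without the block were among them. When the arrays were scaled on the percentile over detected probes, the members divided into 6 higher and 5 lower. In that setting 31.5% of all genes were called, 1876 higher and 3657 lower. Leaving out 1 array gave between 2 and 6 members higher: 2 without no Epo replicate 2, 2 without Epo replicate 1 and 4 without Epo replicate 2.

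**Figure D1:**
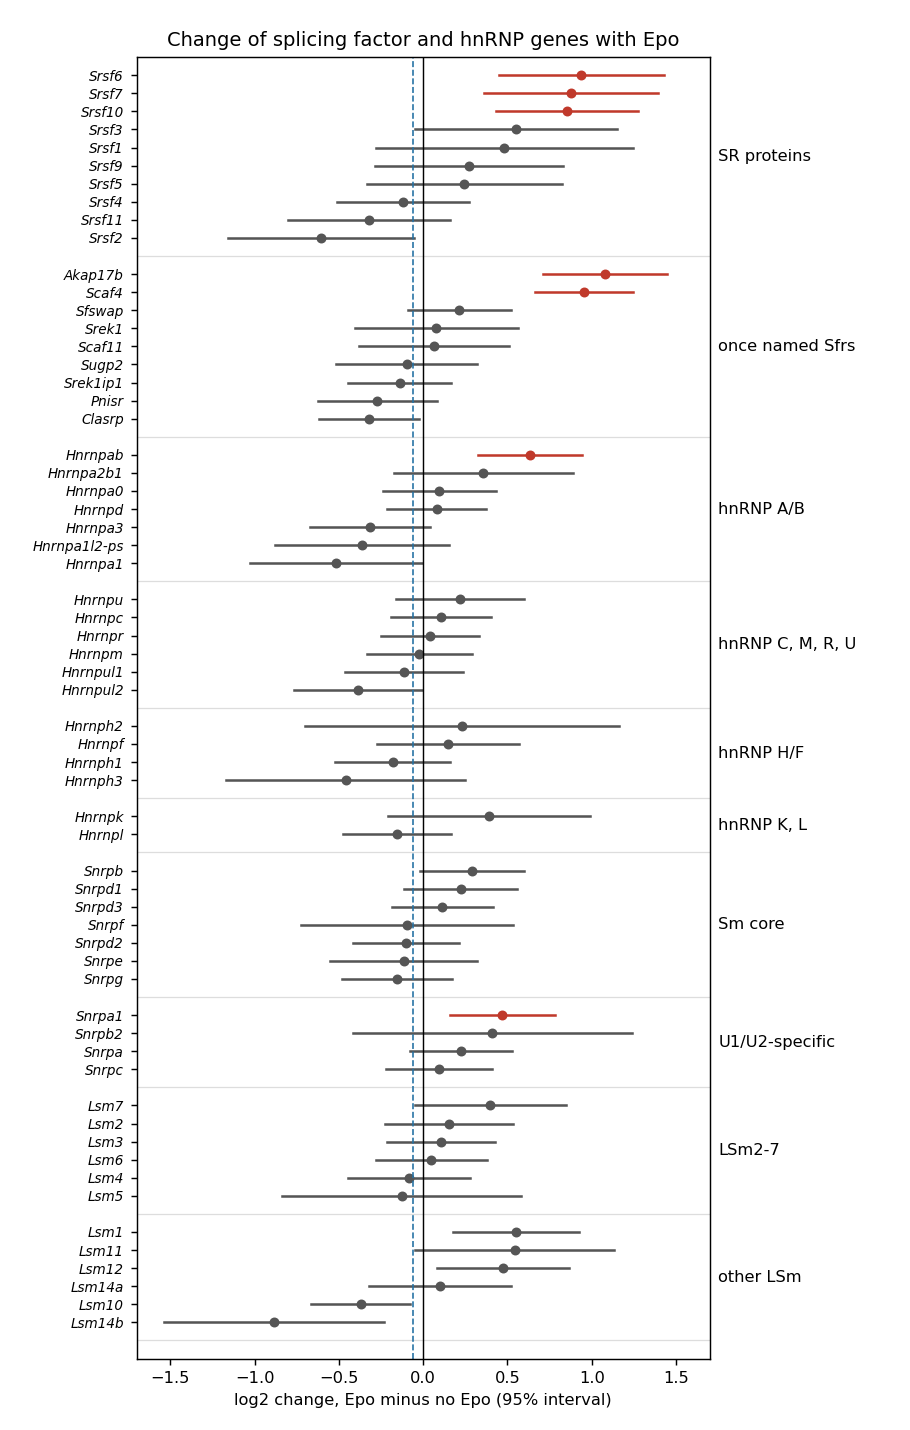
Log2 change (Epo minus no Epo) of the 61 genes, with the 95% confidence interval from the limma fit, grouped by role; red marks genes past the threshold, the solid line is 0 and the dashed line the median of all genes tested (-0.06). The 7 red genes lie at 0.47 to 1.08, while the Sm core and LSm2 to LSm7 genes lie close to 0.

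The SR proteins held 3 of the 7 called genes: Srsf6, Srsf7 and Srsf10 were higher with Epo among 10 SR genes tested of 11 on the array, where 13.1% of all genes were higher and 27.4% were called in either direction. The median change of the 10 was 0.38, 7 were above 0, and their range ran from -0.61 to 0.94. Srsf6, a sequence-specific splicing activator, had log2 signals of 12.60 and 12.26 without Epo and 13.52 and 13.22 with Epo. Both Epo arrays were higher than both others, a log2 change of 0.94 (SE 0.19, n = 2 per group, limma adjusted p = 0.0271). Srsf7, a close relative of Srsf3 that also takes part in mRNA export, read 13.63 and 13.21 without Epo against 14.42 and 14.18 with it. The groups did not overlap, and the change was 0.88 (SE 0.20, limma adjusted p = 0.0356). Srsf10, which acts as a splicing repressor when dephosphorylated, read 10.34 and 10.12 without Epo and 11.22 and 10.95 with Epo, a change of 0.85 (SE 0.16, limma adjusted p = 0.0239). In bulk RNA, more cells that express a gene and more of its RNA per cell cannot be told apart. In fold terms the changes were 1.91, 1.84 and 1.80. On mm9 the probes lie at chr2:162760546-162760605 on the plus strand for Srsf6, chr17:80600741-80600800 on the minus strand for Srsf7 and chr4:135424198-135424257 on the plus strand for Srsf10.

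These calls were not equally stable. The call on Srsf6 was lost without no Epo replicate 2 and without Epo replicate 1, as was that on Srsf10, and the call on Srsf7 was lost in those cases and without Epo replicate 2. The calls on Srsf6 and Srsf7 were also lost when a gene was the mean of its probes. The direction stayed the same in all 14 alternatives, from 0.77 to 1.68 for Srsf6, 0.67 to 1.62 for Srsf7 and 0.72 to 1.60 for Srsf10.

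The other SR genes did not pass the threshold. Srsf3, the smallest SR protein, had a change of 0.55 (SE 0.23, limma adjusted p = 0.137), and Srsf1, the founding member of the family, 0.48 (SE 0.29, limma adjusted p = 0.269). Srsf5, the SR gene with the brightest probe, read 14.05 and 13.58 without Epo and 14.22 and 13.89 with Epo, so that the groups overlapped, and its change was 0.24 (SE 0.22, limma adjusted p = 0.444). Srsf9 stood at 0.27, Srsf4 at -0.12 and Srsf11 at -0.32. The 95% intervals of Srsf3 and Srsf1 reached 1.15 and 1.25, so changes of 2-fold in these genes were not excluded at this precision. With the block, Srsf1 (limma adjusted p = 0.0247) and Srsf3 (limma adjusted p = 0.0249) were higher and Srsf2 (limma adjusted p = 0.0253) was lower, making 5 SR genes higher and 1 lower of 10, where the block called 43.1% of all genes.

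The SR genes also differed together between the replicate numbers. At the brightest probe of each of the 10 SR genes, replicate 1 read higher than replicate 2 in both groups. The gap was 0.22 to 0.56 without Epo and 0.11 to 0.59 with Epo. Srsf1 showed the widest gaps among them, with 13.11 and 12.55 without Epo and 13.60 and 13.02 with Epo. Both other kept probes of Srsf1 went the other way in each group. The one at base 5101 read 11.52 and 11.55 without Epo and 11.64 and 11.74 with Epo. The Srsf3 probe at base 2447 read 9.02 and 8.99 without Epo and 9.24 and 9.27 with Epo. The remaining kept probes of SR genes had replicate 1 higher in both groups. The pattern thus did not hold at every probe of a gene. Replicate 1 was the higher in both groups for 38 of 61 members (62.3%) and for 36.3% of all genes. This pattern was seen in the data and then counted, so it is a description with no test.

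**Figure D2:**
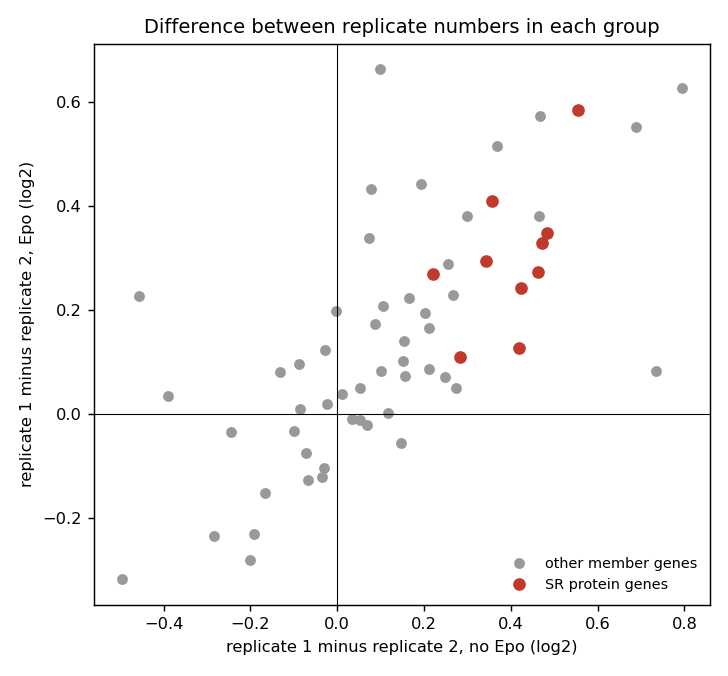
Replicate 1 minus replicate 2 in log2 signal, without Epo on the horizontal axis and with Epo on the vertical axis. Each point is 1 member gene at its brightest probe. The 10 SR genes (red) all lie above 0 on both axes; the other members (grey) spread over all signs.

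The 2 probes of Srsf2 moved in opposite directions. SRSF2 is an SR protein that binds exonic enhancers and is often mutated in myeloid neoplasms. The brighter probe, which starts at base 728 of the design's target transcript, read 12.70 and 12.23 without Epo and 11.995 and 11.72 with Epo. Its groups did not overlap, and its change was -0.61 (SE 0.21, limma adjusted p = 0.0966). The other probe starts at base 1060 and read 11.19 and 10.91 without Epo and 11.92 and 11.45 with Epo, again without overlap but with Epo higher, a change of 0.63 (SE 0.21, single-probe limma adjusted p = 0.0933). A 30-base stretch of each probe is printed here, taken from opposite ends of the 2 probes. These letters alone cannot show that the probes read different sequence, for which the positions below serve. Capitals mark a 7-base stretch that occurs at both marked places in the first probe.

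Srsf2 probe at base 728, probe bases 31 to 60: agaGTCCAAGtctaggtcgcgGTCCAAGag
Srsf2 probe at base 1060, probe bases 1 to 30: gagcgacttcagatttcattattggattgg

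On mm9 the first probe lies at chr11:116713385-116713444 and the second at chr11:116711994-116712053, both on the minus strand. Their starts are 332 bases apart in the transcript and 1391 bases apart in the genome, so by the array design's coordinates 1059 bases of genome between them are absent from that transcript. The log2 difference of the second probe from the first was -1.51 and -1.32 without Epo and -0.08 and -0.27 with Epo. It thus changed by 1.24 (SE 0.16, n = 2 per group), with a limma p of 0.0010 and an adjusted p of 0.0557 over 6180 such probe differences, of which 1.34% were called. The adjusted p missed the threshold; it was 0.0130 with normexp background correction and 0.0719 with the block. Averaging both probes gave Srsf2 a change of 0.014. A single value for the gene therefore depends on which probe stands for it.

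Among 27 genes with more than 1 kept probe, Srsf2 included, there were 38 pairs of the brightest probe with another, of which 4 had opposite signs, 5 had a difference at an unadjusted p under 0.05 and 0 passed the threshold in limma. Tested one by one, 9 of the 99 kept probes were higher and 0 lower, where 25.9% of all single probes were called (13% higher and 12.9% lower). In Srsf10 the probe at base 910 of a second accession changed by 0.94 (limma adjusted p = 0.0153), near the 0.85 of the brightest probe at base 1783, while the probe at base 2896 changed by 0.44 (limma adjusted p = 0.196). The second probes of Srsf6 and Srsf7, at bases 3179 and 1334, changed by 0.61 and 0.77 and did not pass on their own. For these genes the probes at later bases gave the same sign with wider spread: SDs were 0.43 and 0.38 in Srsf6 and 0.64 and 0.48 in Srsf7, without and with Epo.

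**Figure D3:**
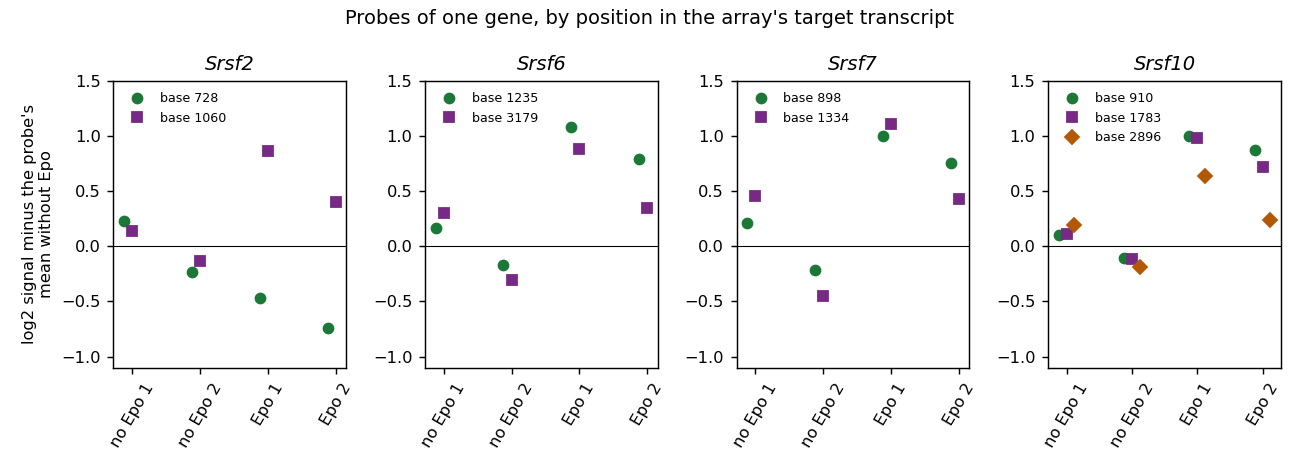
Log2 signal of each kept probe of Srsf2, Srsf6, Srsf7 and Srsf10 on the 4 arrays, as the difference from that probe's mean without Epo; markers of one colour are one probe, named by its first base in the target transcript. The 2 probes of Srsf2 part in the Epo arrays. Those of the other genes share the sign of their change but not its size, with 0.44 to 0.94 in Srsf10.

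Genes once named Sfrs that are not classical SR proteins held the most stable calls. Of 9 tested, 2 were higher, where 13.1% of all genes were higher and 27.4% were called in either direction. Akap17b, which encodes an A-kinase anchoring protein and is named Sfrs17b on the array, read 6.66 and 6.42 without Epo and 7.65 and 7.58 with Epo. It was the largest change of all members, 1.08 (SE 0.14, limma adjusted p = 0.0110), or 2.11-fold, from a dim probe (chrX:34148592-34148651, minus strand, mm9). Its second probe was well above background on 3 arrays, so it was kept through 1 group alone. That probe read 3.93 and 5.49 without Epo and 5.70 and 6.32 with Epo. Its change of 1.30 (SE 0.56, limma adjusted p = 0.157) depends on the background condition and is no separate support for the first probe. Scaf4, whose protein binds the C-terminal domain of RNA polymerase II and prevents premature polyadenylation, read 10.42 and 10.45 without Epo and 11.40 and 11.38 with Epo. The replicates of a group differed by 0.02 at most, and the change was 0.95 (SE 0.11, limma adjusted p = 0.00908). Scaf4 had 1 kept probe, so taking the mean of a gene's probes could not alter its value. Both genes kept their call in 13 of 14 alternatives, including all 4 with an array left out; the exception was the fit with no filter on dim probes, under which no gene on the array was called.

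The remaining genes of this group were close to 0 or below. Clasrp, a protein that binds CLK kinases, read 13.18 and 13.11 without Epo and 12.82 and 12.84 with Epo, a change of -0.32 (SE 0.11, limma adjusted p = 0.0997). Srek1, an SR-related regulator with the brightest probe of the group, changed by 0.08 (SE 0.18, limma adjusted p = 0.771). Its close partner Srek1ip1 stood at -0.14, Pnisr at -0.27, Scaf11 at 0.06, Sugp2 at -0.10 and Sfswap at 0.22.

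**Figure D4:**
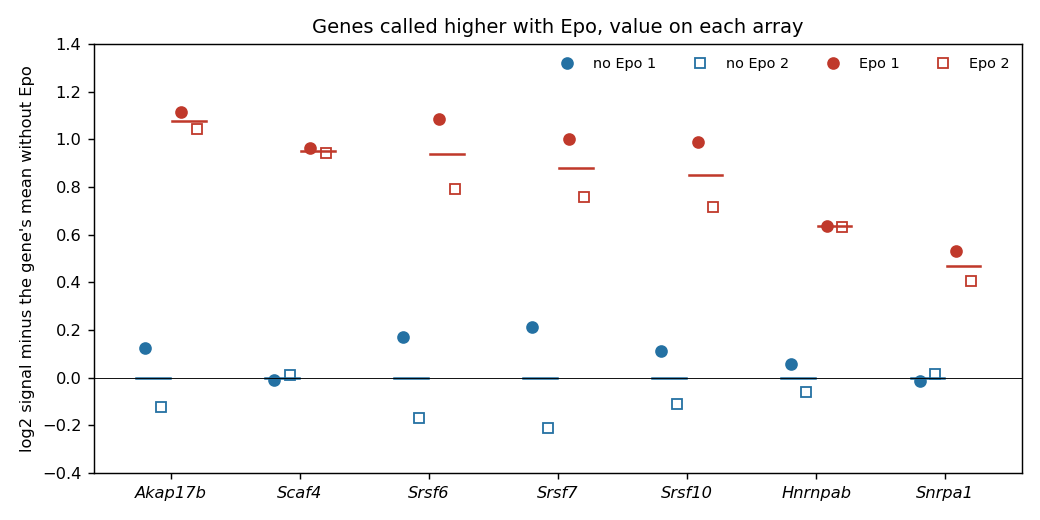
Log2 signal on each array of the 7 genes called higher with Epo, as the difference from that gene's mean without Epo; blue is no Epo, red is Epo, filled circles are replicate 1, open squares replicate 2 and short bars the group means. In each gene both Epo points lie above both points without Epo.

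Among 19 hnRNP genes 1 was called, where 27.4% of all genes were called. Hnrnpab, an A/B-type hnRNP that binds RNA and single-stranded DNA, read 14.52 and 14.41 without Epo and 15.10 and 15.10 with Epo. Its change was 0.63 (SE 0.12, limma adjusted p = 0.0229), or 1.55-fold, and the call was lost without no Epo replicate 2 and without either Epo replicate. Its second probe, at base 2318 against base 1032, changed by 0.34 (SE 0.13, limma adjusted p = 0.124). The median change of the 19 hnRNP genes was 0.04, with 10 above 0 and 9 below.

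Hnrnpa1, the best-studied antagonist of SR proteins, went the other way without passing the threshold. It read 13.68 and 13.49 without Epo and 13.29 and 12.85 with Epo, so both Epo arrays were lower. The change was -0.52 (SE 0.19, limma adjusted p = 0.115), and 0.0388 with the block. The pseudogene Hnrnpa1l2-ps stood at -0.36 (limma adjusted p = 0.225; 0.0412 with the block). Probes of Hnrnpa1, Hnrnpa3 and several Sm genes may also read near-identical copies elsewhere in the genome, so their values are uncertain as values of 1 gene. Hnrnpa3 had the brightest probe of the A/B group and changed by -0.32 (SE 0.13, limma adjusted p = 0.147). This was the lowest value of its 7 kept probes. The others ran from -0.18 to 0.14 with none called. Those at base 2451 (0.14) and at base 858 of another accession (0.008) were above 0, the rest below. Hnrnpa2b1, a relative of Hnrnpa1 that also sorts RNA, stood at 0.36 (limma adjusted p = 0.244), Hnrnpd, which binds AU-rich elements, at 0.08 and Hnrnpa0 at 0.10.

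In the set of Hnrnpc, Hnrnpm, Hnrnpr, Hnrnpu, Hnrnpul1 and Hnrnpul2, none of 6 was called, where 27.4% of all genes were called. At an unadjusted p under 0.05 in limma there was 1, against 42.7% of all genes. All 6 intervals lay within 1 log2 unit of 0. Hnrnpc, which measures RNA length and binds uridine tracts, read 14.77 and 14.71 without Epo and 14.87 and 14.82 with Epo, a change of 0.10 (SE 0.11, limma adjusted p = 0.524). Hnrnpul2, a relative of the scaffold protein hnRNP U, read 10.50 and 10.30 without and 10.11 and 9.92 with Epo, a change of -0.39 (SE 0.14, limma adjusted p = 0.112; 0.0337 with the block). The H/F group, whose proteins bind G tracts, had no call among 4 (0 at an unadjusted p under 0.05 in limma). The same shares of all genes, 27.4% and 42.7%, apply, and 4 genes are few for such a count. In Hnrnpf the brightest probe changed by 0.15 (SE 0.16, limma adjusted p = 0.526), while a dimmer probe of another accession read 9.46 and 9.35 without and 10.04 and 10.01 with Epo and was called on its own at 0.62 (SE 0.12, limma adjusted p = 0.0266). Hnrnph3 was the dimmest member, at -0.46 (SE 0.27, limma adjusted p = 0.259). Hnrnpk, which binds cytosine-rich sequence, changed by 0.39 (SE 0.23, limma adjusted p = 0.258; 0.0366 with the block), and Hnrnpl, which binds CA repeats, by -0.15.

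The Sm core stayed close to 0 in the main setting. None of 7 genes tested was called there, where 27.4% of all genes were called. At an unadjusted p under 0.05 in limma there were 0, against 42.7% of all genes. The changes lay between -0.16 and 0.29 with a median of -0.10, and every 95% interval fell between -0.72 and 0.60. In that setting changes of 2-fold in either direction thus lay outside the intervals of Snrpb, Snrpd1, Snrpd2, Snrpd3, Snrpe, Snrpf and Snrpg. Snrpb, which encodes SmB and SmB', had the largest change, 0.29 (SE 0.12, limma adjusted p = 0.134). It read 12.70 and 12.73 without Epo and 12.94 and 13.06 with Epo. Snrpb was called higher with normexp background correction (0.40, limma adjusted p = 0.0398), which called 36.5% of all genes. With no scaling it was called at 1.04 (limma adjusted p = 0.0048), where 49% of all genes were called and their median was 0.68. Snrpg had the brightest probe, at 16.40 and 16.25 without and 16.20 and 16.13 with Epo, a change of -0.16 (SE 0.12, limma adjusted p = 0.387).

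Of the 4 genes for proteins specific to U1 or U2, Snrpa1 was called, where 27.4% of all genes were called. Snrpa1 encodes the A' protein of the U2 snRNP, which with the B'' protein binds a stem-loop of U2 RNA, and read 12.23 and 12.26 without Epo and 12.78 and 12.65 with Epo. The change was 0.47 (SE 0.12, limma adjusted p = 0.0471), just past the threshold. It was the least stable of the 7 calls: it held in 6 of 14 alternatives and in none of the 4 with an array left out. Its 2 probes changed by 0.47 and 0.48, and are printed here because they are not independent readings; capitals mark the bases that both share within these stretches.

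Snrpa1 probe at base 1183, probe bases 1 to 30: aaccttgAAATAACAATGCCAGTTTTCTAC
Snrpa1 probe at base 1190, probe bases 1 to 30: AAATAACAATGCCAGTTTTCTACaaatggt

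The probes overlap over 53 of 60 bases (chr7:73219407-73219466 and chr7:73219414-73219473 on mm9, plus strand). Snrpb2, which encodes the B'' protein, read 14.06 and 13.37 without Epo and 14.41 and 13.85 with Epo, so that the groups overlapped although the change was 0.41 (SE 0.31, limma adjusted p = 0.370; 0.0388 with the block). The U1 proteins Snrpa and Snrpc stood at 0.22 and 0.09.

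No LSm gene passed the threshold in the main setting, where 27.4% of all genes were called. Some passed in other settings without the block. Lsm7 (limma adjusted p = 0.0467) and Lsm1 (limma adjusted p = 0.0205) were higher with normexp background correction, which called 36.5% of all genes. Lsm14b was lower (limma adjusted p = 0.0367) with the percentile over detected probes, which called 31.5%. The values below are from the main setting unless the block is named. Lsm2 to Lsm7, which with Lsm8 form the ring on U6 RNA, had changes from -0.13 to 0.40 and all 6 intervals within 1 log2 unit of 0; 0 of 6 was at an unadjusted p under 0.05 in limma. Lsm7 had the largest, from 15.07 and 15.46 without Epo to 15.68 and 15.65 with Epo (0.40, SE 0.17, limma adjusted p = 0.148). Of the other 6 LSm genes 0 passed, and 4 were at an unadjusted p under 0.05 in limma, 2 above and 2 below 0, as were 42.7% of all genes in either direction. Lsm1, which gives the cytoplasmic ring its role in decapping, read 11.64 and 11.43 without and 12.17 and 12.001 with Epo, a change of 0.55 (SE 0.14) whose limma adjusted p of 0.0503 lay at the threshold. Lsm14b, a protein of translationally silent RNA granules, read 9.57 and 9.47 without and 8.96 and 8.30 with Epo, a change of -0.89 (SE 0.25, limma adjusted p = 0.0605). Its second probe, above background on 2 arrays only, changed by 0.03.

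Lsm10 and Lsm11 replace SmD1 and SmD2 in the U7 snRNP, which processes histone mRNA. Lsm10 read 11.31 and 11.28 without and 10.92 and 10.93 with Epo, a change of -0.37 (SE 0.11, limma adjusted p = 0.0689). Lsm11 read 8.34 and 8.84 without and 8.97 and 9.29 with Epo, a change of 0.54 (SE 0.22, limma adjusted p = 0.139), so these partners had opposite signs. Lsm12 changed by 0.48 (SE 0.15, limma adjusted p = 0.0766) and Lsm14a by 0.10. With the block, Lsm1, Lsm11 and Lsm12 were higher and Lsm10 and Lsm14b lower, where the block called 43.1% of all genes.

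Across the whole set, 22 members had both Epo arrays above both arrays without Epo and 16 had both below. Over all genes the groups did not overlap in 68.8%, with Epo above in 30.4% and below in 38.4%.

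The proteins that work with these genes were taken from 10 lists, chosen with earlier results of these data known. The lists hold 137 genes, all tested. Over these, 23 were higher and 3 lower (19%), below the 27.4% of all genes called (13.1% higher and 14.3% lower), with a median change of 0.19. With the replicate block 42 were higher and 5 lower, where 43.1% of all genes were called. No list was tested as a set. The list with the most calls was snRNP assembly and export, in which 10 of 18 were higher and 1 lower (13 and 1 with the block), with a median of 0.64 against -0.06 for all genes. Wdr77, the partner of the methyltransferase Prmt5 in modifying Sm proteins, was higher by 1.81 (SE 0.16, limma adjusted p = 0.00603), and Gemin4, a part of the SMN complex that loads the Sm ring, by 1.28 (SE 0.12, limma adjusted p = 0.00643). Gemin8, another SMN complex member, fell by 1.04 (SE 0.11, limma adjusted p = 0.00826). The Sm genes that these factors assemble had no call in the main setting, as given above. The difference between the lists was not tested.

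Of 10 U4/U6 and tri-snRNP proteins, 5 were higher and 0 lower (6 and 0 with the block), with a median of 0.63. For this and the next lists, 27.4% of all genes were called, and 43.1% with the block. They were Snu13, which binds a kink-turn in U4 RNA (0.91, SE 0.11, limma adjusted p = 0.00986), Usp39, needed for tri-snRNP assembly (0.76, SE 0.15, limma adjusted p = 0.0253), Prpf31, Prpf4 and Prpf3. Among 12 U1 and U5 proteins Txnl4a, of the U5 snRNP, was higher by 0.74 (SE 0.13, limma adjusted p = 0.0211), and Luc7l was also called with the block. In the minor spliceosome 2 of 8 (25%) were higher, Zrsr2 by 0.67 and Snrnp35 by 0.65, and 3 with the block. That share is near the 27.4% of all genes called. Of 8 decapping partners of the Lsm1 ring, 2 (25%) were higher, again near the share of all genes, and 4 with the block. They were the decapping activator Dcp1a by 0.88 (SE 0.13, limma adjusted p = 0.0147) and, without the block also, the decapping enzyme Dcp2 by 0.70 (SE 0.18, limma adjusted p = 0.0475).

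None of 16 U2 and U2AF genes passed, where 27.4% of all genes were called. At an unadjusted p under 0.05 in limma there were 4, against 42.7% of all genes. Dhx15, a helicase that takes spliceosomes apart, stood at 0.88 (SE 0.28, limma adjusted p = 0.0790) and Phf5a, of SF3b, at 0.32 (limma adjusted p = 0.102). With the block 3 of the 16 were higher: Dhx15, Sf1 and Sf3a1. None of 15 Prp19 complex and activation genes passed (1 at an unadjusted p under 0.05 in limma), with Aqr at 0.39 and Cdc5l at 0.40; Aqr alone was higher with the block. Of 7 second-step genes, the helicase Dhx35 fell by 0.54 (SE 0.11, limma adjusted p = 0.0306), and with the block 2 were higher and 2 lower. Of 9 kinases and import factors of SR proteins, Srpk2, an SR protein kinase, fell by 0.56 (SE 0.14, limma adjusted p = 0.0467), and with the block Prpf4b was also higher. Of 34 other regulators, 3 were higher: Celf1 by 0.999, Rnps1 by 0.60 and Pnn by 0.45, the last 2 being found at exon junctions; with the block 7 were higher and 1 lower.

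Promoter sequence was looked up in RefSeq (GRCm38.p6) for the 61 members, of which 53 had an entry covering 250 bases before to 50 bases after the start. The motifs below were searched on both strands. CCAAT, the site of NF-Y, occurred in 27 of 53 member promoters (50.9%) and in 41.1% of 27025 promoters, and in 3 of the 7 called genes: Srsf10, Hnrnpab and Akap17b. CACGTG, the E-box bound by Myc and Max, occurred in 7 (13.2%) against 8.09% of all, and in 0 of the 7 called genes. TTCNNNGAA, the motif of STAT5, which Epo activates, occurred in 4 (7.55%) against 9.55% of all, and in 0 of the 7. Windows were cut only around matches with 30 bases on each side within the 250 bases before the start. Of these, the window nearest the start that holds CCAAT or its reverse complement is shown for each of the 3 called genes, with the motif in capitals.

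Srsf10, chr4:135855912-135855976, plus strand: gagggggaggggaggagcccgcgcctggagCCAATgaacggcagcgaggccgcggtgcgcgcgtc
Hnrnpab, chr11:51606888-51606952, minus strand: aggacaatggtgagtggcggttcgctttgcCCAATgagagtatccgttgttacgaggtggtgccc
Akap17b, chrX:36645422-36645486, minus strand: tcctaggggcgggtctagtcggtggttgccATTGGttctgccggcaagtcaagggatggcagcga

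These motifs start 129, 41 and 42 bases before the start of transcription. Hnrnpab had 3 matches with such a window and Akap17b 2, and matches closer to the edges or after the start were not counted. A match describes the letters only; binding was not measured.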

How the data were processed

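Poly(A)-primed, Cy3-labelled RNA from 4 samples, 2 per group, was hybridised to Agilent mouse arrays on 1 slide with 1 scan. Per the file headers, Feature Extraction 10.1.1.1 wrote the deposited intensities: a processed intensity, corrected for background and not scaled between arrays, and the raw mean and local background intensities. The submitters' processing notes name limma, with no role. Here the log2 processed intensity was scaled to each array's 75th percentile over 59305 non-control spots. Outlier spots were left out (9 probes lost), spots of a probe averaged, and probes kept that were well above background on both arrays of a group (23735 probes, 17555 genes). A gene is its brightest kept probe, so that a probe that disagrees is not seen in the gene's value. Groups were compared with limma 3.58.1 in R 4.3.3 (lmFit, eBayes; 2 residual and 4.57 total degrees of freedom; median SE 0.14), two-sided, adjusted over all genes, threshold 0.05. With 2 arrays per group their number limits the precision. The script was tested on simulated data.

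Names were updated through RefSeq (GRCm38.p6); probe positions are on mm9, per the file headers, and whether a probe lies in an exon or intron was not annotated here. No member probe was saturated. The design text gives 2 independent experiments, and the replicate numbers were read as these: deviations of same-numbered samples from the group means correlated at 0.39 across 17555 genes, which are not independent replicates, in 2 pairs. The members, roles and lists were chosen with earlier results of these data known. In each role every called gene is named with values, with the uncalled genes of largest change and of highest level, those whose probes disagree, and from each list up to 2 genes that rose and 2 that fell (where none passed, the 2 of smallest p). Other genes are named for completeness or after their values were seen. Alternatives were normexp background correction (offset 50), 3 other scalings, 2 dim-probe filters, 2 probe rules, the replicate block, an intensity trend and each array left out. The comparison of probe pairs, the range of bright genes and the replicate differences were added after seeing the data.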

Additional observations from a re-analysis of the deposited data

How the results depend on the processing

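Member genes higher with Epo numbered 7 in the main setting and 12 with normexp correction, 38 with no scaling, 14 with the replicate block and 0 with no filter on dim probes. The share of all genes called moved with these, from 27.4% to 36.5%, 49%, 43.1% and 0%. With no filter limma called no gene at all, with 8 of 63 members and 7148 of 36310 genes at an unadjusted p under 0.05. Other alternatives gave 6 to 9 (9 with an intensity trend, which called 32.2% of all genes), and leaving out an array 2 to 6, with 12.9% to 22.6% of all genes called. Member genes lower numbered 0 in the main setting, 5 with the percentile over detected probes, 1 with quantile normalization, 1 with probes above background on all 4 arrays, 6 with the replicate block and 2 with an intensity trend, and 0 to 2 with an array left out. The median change was 0.095, and 0.22 with normexp, -0.031 with the percentile over detected probes, 0.019 with quantile normalization and 0.84 with no scaling, where the median of all genes was 0.68; leaving out an array gave 0.022 to 0.16. Over all genes the percentile over detected probes gave 1876 higher and 3657 lower, and no scaling 8231 and 364. The Srsf2 probe difference was 1.24 and, with normexp, 1.28, past the threshold; an array left out gave 1.14 to 1.34.

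No scaling moved the median of all genes by 0.75 and the percentile over detected probes by -0.13, so sign changes there follow a shift of the whole array. Of the 61 members, 23 changed sign with no scaling, 11 with the percentile over detected probes, 8 with quantile normalization, 7 with normexp, 1 with the mean of the probes and 3 to 8 with an array left out. None was among the 7 called. Among the genes singled out in each role, those that changed sign were with the percentile over detected probes Hnrnpc (-0.022) and Srek1 (-0.048); with quantile normalization Snrpg (0.041) and Srek1 (-0.014); with no scaling Snrpg (0.59), Hnrnpa3 (0.43), Hnrnpa1 (0.23), Clasrp (0.43), Srsf2 (0.14), Hnrnpul2 (0.36) and Hnrnph3 (0.29); with the mean of a gene's probes Srsf2 (0.014); and without Epo replicate 1 Hnrnpf (-0.024; up to 0.32 with another array left out) and Srek1 (-0.14; up to 0.30). Dim probes, as those of Akap17b and Hnrnph3, lie nearest to background. Apart from scaling, fewer arrays and fewer genes tested, the cause of these shifts was not tested.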
